A study of Homo sapiens with 16 samples.

Results

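The 48 h libraries of a TGF-beta time course in A549 cells were compared with the 0 h libraries, to ask which genes stood higher or lower after 48 h of the treatment. The members were the 48 h and 0 h samples of both numbered replicates, 4 of the 16 libraries of the series. A549 is an established cell line from a human lung adenocarcinoma, and TGF-beta was used to induce an epithelial to mesenchymal transition (EMT). The series holds 2 libraries at each of 8 times: 0, 6, 12, 24, 36, 48, 72 and 96 h. The groups are A549 under TGF-beta for 48 h and A549 at 0 h, with no genetic change in either. The labels do not give the form or dose of the ligand, and no untreated culture of the later times was analysed here, so that 48 h of TGF-beta and 48 h in culture cannot be told apart. The labels number the replicates without saying that they were separate cultures, and p-values therefore reflect how far these libraries vary, part of which may be technical.

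TGF-beta is a secreted cytokine that binds a pair of serine/threonine kinase receptors (TGFBR2 and TGFBR1). The receptors phosphorylate SMAD2 and SMAD3, which enter the nucleus with SMAD4 and switch on genes of matrix, adhesion and feedback. In epithelial cells the signal also induces transcription factors of the SNAI and ZEB families, known for repressing E-cadherin. Cells then lose junctions, gain N-cadherin and vimentin, and deposit matrix; in the lung this response is known from fibrosis and from tumour invasion.

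Values are TPM, each gene's length-corrected share of the transcripts in a library, recomputed after 6 abundant small RNAs were removed and each library was rescaled to 1e+06. These RNAs took 64.1% and 60.2% of the deposited TPM in the 48 h libraries, against 51.8% and 51.8% in the 0 h libraries. Fold changes are of log2(TPM + 1), a scale on which low genes show too small a change, and are relative to the median shift of all genes. That shift was -0.22 (log2), or -0.25 in replicate 1 and -0.17 in replicate 2. TPM keep no read totals, so the depth is unknown. Genes listed at 0 numbered 30909 and 36294 in the 48 h libraries, against 30029 and 30138 in the 0 h libraries, and 48 h replicate 2 held 68 non-zero genes below 0.1 TPM, against 2290 in 48 h replicate 1. It stood apart in this respect together with 36 h replicate 2, which held 135; whether this has a part in the results was not tested, and the calls without 48 h replicate 2 are given below. The epithelial keratins KRT8 and KRT18 were abundant in all 4 libraries (KRT8 1493 and 1936 TPM at 48 h, against 3354 and 4067 TPM at 0 h). KRT19 measured 15.5 and 16.4 TPM at 48 h, against 105 and 103 TPM at 0 h. CDH1 measured 2.03 and 8.48 TPM at 48 h, against 30.1 and 57.1 TPM at 0 h, and EPCAM at most 9.61 TPM. The alveolar markers SFTPA1, SFTPC and NKX2-1 reached at most 0.394 TPM in any of the 4 libraries. The epithelial part of the cell type label was borne out by KRT8 and KRT18, and less by CDH1 and EPCAM. The alveolar part was not borne out by SFTPA1, SFTPC and NKX2-1. The alveolar markers SFTPB and NAPSA were also set for this check, but their values are not given here. No verdict is drawn on the alveolar markers as a whole.

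Of 21216 genes tested with limma, with the libraries paired by replicate number and Benjamini-Hochberg adjustment at 0.05, 1116 (5.26%) were called higher at 48 h and 924 (4.36%) lower. Without pairing, 500 (2.36%) were called higher and 329 (1.55%) lower, and all 829 of these were among the paired calls. Their direction could not differ, since every time holds both replicate numbers. The split between directions depends on scaling: it was 883 higher and 1106 lower with TMM scaling, 647 and 1617 without centring on the median shift, and 288 and 2534 with TPM as deposited. Without any 1 of the 4 libraries, 333 higher and 158 lower calls held. The number of calls was lowest without 0 h replicate 2, at 409 higher and 227 lower. Without 48 h replicate 2 it was 743 and 522, without 48 h replicate 1 it was 719 and 506, and without 0 h replicate 1 it was 584 and 328. Both 48 h libraries lay above both 0 h libraries for 13.8% of the tested genes and below both for 39.5%, on the rescaled TPM.

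**Figure D1:**
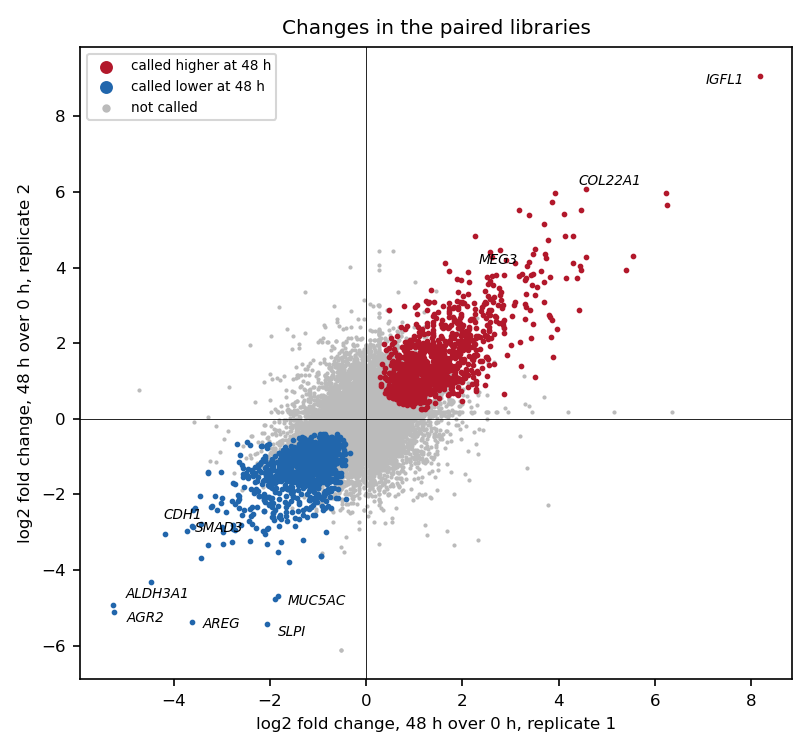
Each point is 1 tested gene, with its log2 fold change (48 h over 0 h, relative to the median of all genes) between the replicate 1 libraries on the x axis and between the replicate 2 libraries on the y axis. The 1116 genes called higher (red) and the 924 called lower (blue) lie at the upper right and the lower left, with IGFL1 at 8.17 and 9.07.

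The largest rise was that of IGFL1, a small secreted protein of the insulin growth factor-like family (ENSG00000188293; chromosome 19, 46229752 to 46231243, GRCh38, GENCODE release 29, as for all gene coordinates here). IGFL1 measured 656 and 1481 TPM at 48 h, against 1.76 and 2.16 TPM at 0 h. Both 48 h libraries stood far above both 0 h libraries, with adjusted p = 2.06e-05 and a log2 fold change of 8.62 (SE 0.65). Its neighbours IGFL2 (chromosome 19, 46143106 to 46161299) and IGFL3 (chromosome 19, 46120071 to 46124674) were also among the 15 largest rises. IGFL2 measured 179 and 95.6 TPM at 48 h, against 1.87 and 1.202 TPM at 0 h (adjusted p = 4.3e-06, log2 fold change 5.95, SE 0.34). IGFL3 measured 27.6 and 64.3 TPM at 48 h, against 1.29 and 0.187 TPM at 0 h (adjusted p = 0.000117, log2 fold change 4.95, SE 0.50). The 3 genes lie next to each other on chromosome 19, and none had more than 2.16 TPM in a 0 h library.

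COL22A1, the next largest rise, is a collagen of tissue junctions such as that of muscle and tendon (ENSG00000169436; chromosome 8, 138588235 to 138914006). COL22A1 measured 97.6 and 64.8 TPM at 48 h, against 0.581 and 0.207 TPM at 0 h, close to absent before treatment and well expressed in both 48 h libraries (adjusted p = 2.24e-06, log2 fold change 6.10, SE 0.30). Its change was 6.23 and 5.96 in replicates 1 and 2. SLN, a small inhibitor of the sarcoplasmic reticulum calcium pump, measured 21.3 and 77.6 TPM at 48 h, against 0.145 and 0.332 TPM at 0 h (adjusted p = 7.8e-05, log2 fold change 5.32, SE 0.50). TNFAIP6, a secreted hyaluronan-binding protein, measured 39.97 and 60.5 TPM at 48 h, against 1.25 and 0.539 TPM at 0 h (adjusted p = 0.000197, log2 fold change 4.99, SE 0.55). For all 3 genes the 0 h libraries held at most 1.25 TPM, and the 48 h libraries lay far above them.

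The other large rises included abundant genes. SERPINE2, an inhibitor of thrombin and plasminogen activators, measured 1091 and 764 TPM at 48 h, against 74.7 and 29.8 TPM at 0 h (adjusted p = 6.21e-06, log2 fold change 4.47, SE 0.27). TAGLN, transgelin, which binds actin, measured 968 and 482 TPM at 48 h, against 80.2 and 9.31 TPM at 0 h (adjusted p = 0.000167, log2 fold change 4.80, SE 0.52). Replicate 1 held more TAGLN than replicate 2 at both times, and the 48 h libraries lay above both 0 h libraries. MMP2, a secreted gelatinase, measured 138 and 69.01 TPM at 48 h, against 8.82 and 0.871 TPM at 0 h (adjusted p = 1.87e-05, log2 fold change 4.76, SE 0.35). SCG5, a chaperone of a prohormone convertase, rose by 4.42 and R3HDML by 4.42 on the log2 scale. The non-coding transcript CTD-2066L21.3 (chromosome 5, 32925639 to 33297910) measured 34.8 and 35.97 TPM at 48 h, against 3.11 and 0 TPM at 0 h. LCE3D, a cornified envelope protein of skin, measured 39.7 and 12.4 TPM at 48 h, against 0.166 and 0 TPM at 0 h; it belongs to a cluster of near-identical genes, so its share of reads is uncertain.

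**Figure D2:**
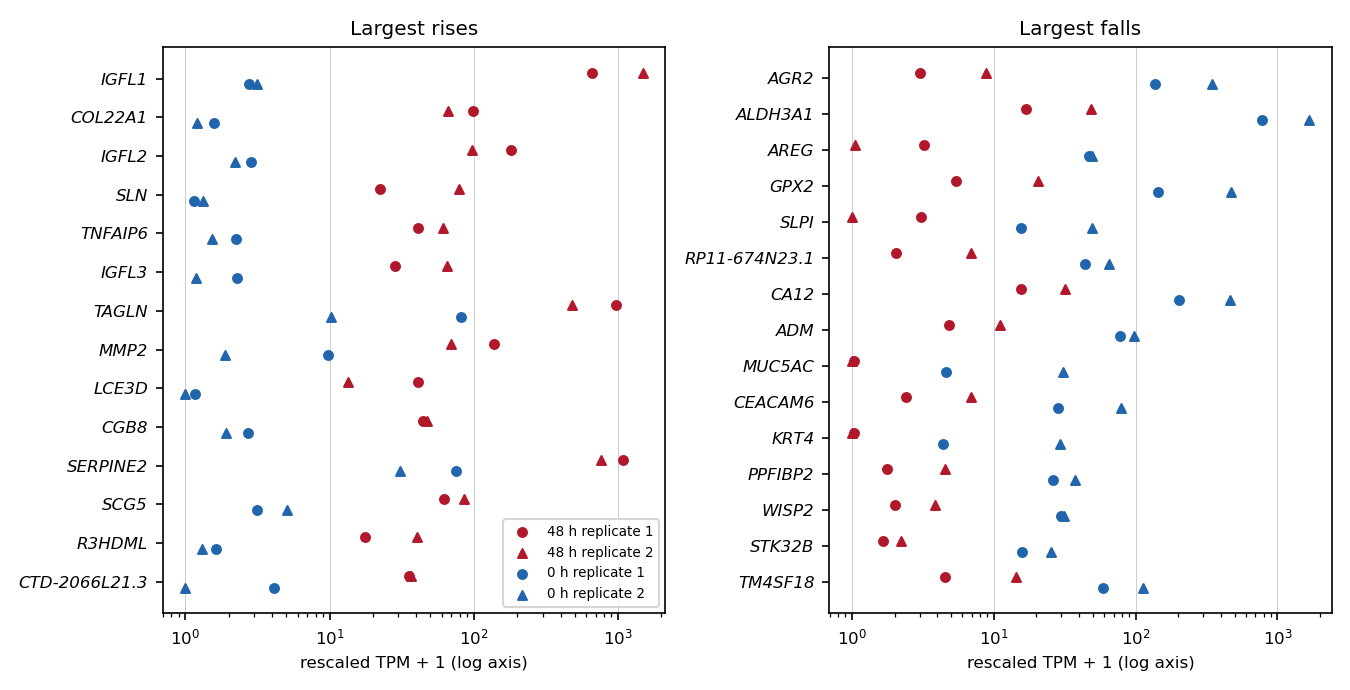
Rescaled TPM + 1 on a log axis for the largest rises (left) and the largest falls (right) reported here among called genes whose higher group averaged 5 TPM or more. Red symbols are the 48 h libraries and blue the 0 h libraries, circles replicate 1 and triangles replicate 2. The red and blue symbols do not overlap in any row because genes were chosen on that condition.

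Among the falls, AGR2 was the largest (ENSG00000106541; chromosome 7, 16791811 to 16833433). AGR2, a disulfide isomerase needed for mucin secretion, measured 2.003 and 7.83 TPM at 48 h, against 136 and 344 TPM at 0 h (adjusted p = 9.85e-05, log2 fold change -5.17, SE 0.51). ALDH3A1, an aldehyde dehydrogenase (ENSG00000108602; chromosome 17, 19737984 to 19748943), measured 15.7 and 47.5 TPM at 48 h, against 774 and 1672 TPM at 0 h (adjusted p = 7.48e-05, log2 fold change -5.09, SE 0.48). AREG, the EGF receptor ligand amphiregulin, measured 2.198 and 0.0502 TPM at 48 h, against 46.2 and 48.3 TPM at 0 h (adjusted p = 0.0014, log2 fold change -4.48, SE 0.66). Its change was -3.61 in replicate 1 and -5.36 in replicate 2. Replicate 2 measured 6.92 TPM of AREG at 36 h and 8.25 TPM at 72 h, so the size of this fall depends on 1 very low value. CA12, a membrane carbonic anhydrase, measured 14.6 and 30.7 TPM at 48 h, against 200.1 and 462 TPM at 0 h (adjusted p = 2.7e-05, log2 fold change -3.55, SE 0.29). ADM, the vasodilator peptide adrenomedullin, measured 3.81 and 10.02 TPM at 48 h, against 76.3 and 96.7 TPM at 0 h (adjusted p = 0.000154, log2 fold change -3.35, SE 0.35). AGR2, ALDH3A1, CA12 and ADM were each higher in replicate 2 than in replicate 1 at both times. WISP2, a member of the CCN family, had a log2 fold change of -3.22, PPFIBP2 -3.22, STK32B -3.15 and TM4SF18 -3.10. RP11-674N23.1, annotated as an antisense transcript, had a log2 fold change of -3.61; without a stated strand its reads cannot be told apart from those of the gene it overlaps. TM4SF18 lost its call without pairing (adjusted p = 0.0904).

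SMAD-induced targets, the genes that receptor signalling switches on most directly, were mostly higher at 48 h. In this list, 17 of 24 tested members were called higher and 0 lower, or 9 and 0 without pairing by replicate number; the median log2 fold change was 1.60, against 0.01 over all tested genes. Here and for each list below, the shares over all tested genes were 5.26% higher and 4.36% lower, or 2.36% and 1.55% without pairing. All lists were chosen with earlier results of these data known, and some hold genes from the largest rises and falls, as TAGLN here. Their counts, medians and sums are therefore description and not support. COL4A1, a basement membrane collagen, measured 524 and 363 TPM at 48 h, against 69.2 and 29.6 TPM at 0 h (adjusted p = 0.000154, log2 fold change 3.47, SE 0.37). TGFBI, a secreted matrix protein named for its induction by TGF-beta, measured 5316 and 8422 TPM at 48 h, against 1476 and 648 TPM at 0 h (adjusted p = 0.00115, log2 fold change 3.01, SE 0.43). All 48 h values of both genes exceeded all 0 h values. The inhibitory SMAD7, a feedback regulator, measured 64.3 and 31.5 TPM at 48 h, against 33.997 and 17.1 TPM at 0 h (adjusted p = 0.0259, log2 fold change 1.10, SE 0.27), and ID1, a helix-loop-helix inhibitor of differentiation, measured 268 and 262 TPM at 48 h, against 139 and 174 TPM at 0 h (adjusted p = 0.0459). SMAD7 overlapped between the times, with 48 h replicate 2 below 0 h replicate 1. Other called members, listed after their values were seen, included PMEPA1, LDLRAD4, ITGB6, COL1A1, CTGF, JUNB, LTBP2, SNAI1, BHLHE40, SMURF2 and TGFB1, with TAGLN above. SKI, a co-repressor of SMADs, was the member with a fold change below 0 (-0.86, adjusted p = 0.132, not called). JUNB and SNAI1 lost their calls without 0 h replicate 2 (adjusted p = 0.0533 and 0.0508). TGFB1 lost its call when 48 h replicate 1, 48 h replicate 2 or 0 h replicate 1 was left out (highest adjusted p = 0.178). SMAD7 and ID1 lost their calls when 48 h replicate 1, 0 h replicate 1 or 0 h replicate 2 was left out (highest adjusted p = 0.231 and 0.256). CTGF lost its call when 48 h replicate 2, 0 h replicate 1 or 0 h replicate 2 was left out (highest adjusted p = 0.165). SMURF2 lost its call when any 1 of the 4 libraries was left out (highest adjusted p = 0.197). SMAD7, ID1, COL1A1, CTGF, LTBP2, SNAI1, SMURF2 and TGFB1 lost their calls without pairing (adjusted p = 0.223, 0.159, 0.272, 0.26, 0.126, 0.165, 0.235 and 0.393). In the SMAD-induced targets list the calls numbered 12, 15, 12 and 10 higher without 48 h replicate 1, 48 h replicate 2, 0 h replicate 1 and 0 h replicate 2 in turn.

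The pathway's own components split. Among TGF-beta ligands, receptors and SMADs, 5 of 17 tested members were called higher and 3 lower, or 1 and 2 without pairing by replicate number. TGFBR1, the type I receptor kinase, rose: it measured 209 and 153 TPM at 48 h, against 64.4 and 41.2 TPM at 0 h (adjusted p = 0.00115, log2 fold change 2.01, SE 0.29). SMAD3, the signal carrier that binds DNA, fell: it measured 20.2 and 27.1 TPM at 48 h, against 122 and 162 TPM at 0 h (adjusted p = 2.12e-05, log2 fold change -2.30, SE 0.18), with no overlap between the times. The latent TGF-beta binding proteins LTBP2 and LTBP3, which store the ligand in matrix, rose by 1.68 and 1.28 on the log2 scale. SMAD6, an inhibitor of BMP signalling, measured 19.6 and 20.9 TPM at 48 h, against 55.6 and 61.7 TPM at 0 h (adjusted p = 0.0105, log2 fold change -1.26, SE 0.26), and TGFBR3, the co-receptor betaglycan, measured 0.723 and 3.77 TPM at 48 h, against 8.49 and 10.99 TPM at 0 h (adjusted p = 0.028, log2 fold change -1.66, SE 0.42). TGFBR2, SMAD2 and SMAD4 did not pass the test, with log2 fold changes of -0.47, 0.20 and 0.35. LTBP3 lost its call without 0 h replicate 1 (adjusted p = 0.0566). TGFBR3 lost its call when 48 h replicate 1, 0 h replicate 1 or 0 h replicate 2 was left out (highest adjusted p = 0.18). SMAD6 lost its call when 48 h replicate 2, 0 h replicate 1 or 0 h replicate 2 was left out (highest adjusted p = 0.0931). LTBP2, LTBP3 and TGFBR3 lost their calls without pairing (adjusted p = 0.126, 0.218 and 0.0878). In the TGF-beta ligands, receptors and SMADs list the calls numbered 3, 4, 2 and 4 higher without 48 h replicate 1, 48 h replicate 2, 0 h replicate 1 and 0 h replicate 2 in turn.

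Matrix genes were called higher in each of the lists described next. Among interstitial matrix and matricellular proteins, 11 of 19 tested members were called higher and 1 lower, or 8 and 1 without pairing by replicate number, with a median log2 fold change of 1.39. FN1, fibronectin, measured 1399.5 and 1108 TPM at 48 h, against 280.3 and 173 TPM at 0 h (adjusted p = 9.13e-05, log2 fold change 2.73, SE 0.27). THBS1, thrombospondin 1, measured 1019 and 686 TPM at 48 h, against 122 and 58.4 TPM at 0 h (adjusted p = 2.7e-05, log2 fold change 3.52, SE 0.28). FBN2, a microfibril protein, was the member called lower, at 9.88 and 14.96 TPM at 48 h, against 55.1 and 37.8 TPM at 0 h (adjusted p = 0.00586, log2 fold change -1.59, SE 0.30). Summed over the list, matrix transcripts made up 8863 and 11804 TPM at 48 h, against 2375 and 1264 TPM at 0 h. FBN2 lost its call when 48 h replicate 1 or 0 h replicate 1 was left out (highest adjusted p = 0.0592). The interstitial matrix and matricellular proteins list kept 8 of 11 higher and 0 of 1 lower calls without any 1 of the 4 libraries.

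Collagens and laminins changed chain by chain rather than as whole sets. Among basement membrane collagens and laminins, 8 of 20 tested members were called higher and 1 lower, or 6 and 0 without pairing by replicate number. COL4A2, the partner chain of COL4A1, measured 425 and 253 TPM at 48 h, against 105 and 53.7 TPM at 0 h (adjusted p = 0.000125, log2 fold change 2.34, SE 0.24). LAMA3, a laminin alpha chain, went the other way, at 2.75 and 9.04 TPM at 48 h, against 16.9 and 24.4 TPM at 0 h (adjusted p = 0.00216, log2 fold change -1.57, SE 0.25); LAMB3, a laminin beta chain, stood at 0.41 on the log2 scale (adjusted p = 0.568) and was not called. Among fibrillar and other collagens, 6 of 15 tested members were called higher and 0 lower, or 2 and 0 without pairing by replicate number. COL1A1 measured 45.95 and 15.8 TPM at 48 h, against 8.63 and 2.74 TPM at 0 h (adjusted p = 0.0035, log2 fold change 2.46, SE 0.42). COL5A1 measured 156 and 44.6 TPM at 48 h, against 49.7 and 8.79 TPM at 0 h (adjusted p = 0.000346, log2 fold change 2.16, SE 0.26), and its 0 h replicate 1 value exceeded its 48 h replicate 2 value, so the times overlapped and the call rests on the pairing. COL3A1, COL6A1 and COL12A1 were not called, with log2 fold changes of 0.10, -0.73 and 0.09. The median of this list was 0.20, and -0.03 without centring. LAMA3, COL1A1 and COL5A1 lost their calls without pairing (adjusted p = 0.174, 0.272 and 0.345). In the basement membrane collagens and laminins list the calls numbered 6, 5, 6 and 5 higher without 48 h replicate 1, 48 h replicate 2, 0 h replicate 1 and 0 h replicate 2 in turn. The fibrillar and other collagens list kept 4 of 6 higher calls without any 1 of the 4 libraries.

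Among the enzymes that modify collagen, 4 of 17 tested members were called higher and 0 lower, or 3 and 0 without pairing by replicate number. P4HA3, a prolyl hydroxylase subunit, measured 152 and 204 TPM at 48 h, against 29.9 and 10.1 TPM at 0 h (log2 fold change 3.49). P4HA2, another of these subunits, measured 77.7 and 102 TPM at 48 h, against 41.4 and 38.97 TPM at 0 h (log2 fold change 1.36). BMP1, the proteinase that trims procollagen, measured 109.99 and 76.04 TPM at 48 h, against 37.8 and 26.8 TPM at 0 h (log2 fold change 1.72). The crosslinking oxidases LOX and LOXL1 had log2 fold changes of 0.24 and -0.02 and were not called. The collagen-modifying enzymes list kept 3 of 4 higher calls without any 1 of the 4 libraries.

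Integrins, the receptors through which cells hold matrix, were called higher in part: 10 of 15 tested members were called higher and 0 lower, or 4 and 0 without pairing by replicate number, with a median log2 fold change of 1.14. ITGA11, a collagen receptor subunit of fibroblasts, measured 69.5 and 98.2 TPM at 48 h, against 8.47 and 1.47 TPM at 0 h (adjusted p = 0.000172, log2 fold change 4.34, SE 0.47). ITGA2, a collagen receptor subunit of epithelia, measured 120.5 and 117 TPM at 48 h, against 19.9 and 16.7 TPM at 0 h (adjusted p = 0.00104, log2 fold change 2.87, SE 0.40). ITGB6, the subunit that with ITGAV releases latent TGF-beta, measured 49.96 and 66.1 TPM at 48 h, against 14.2 and 7.03 TPM at 0 h (adjusted p = 0.000494, log2 fold change 2.64, SE 0.33). The 0 h values of ITGA11 differed between replicates by a larger factor than its 48 h values did, and in none of the 3 genes did the times overlap. ITGB8, which also activates latent TGF-beta, had a log2 fold change of -1.10 (adjusted p = 0.0814) and was not called. Across the 15 integrins, 13 had fold changes above 0, or 12 with TMM scaling. In the integrins list the calls numbered 6, 7, 5 and 6 higher without 48 h replicate 1, 48 h replicate 2, 0 h replicate 1 and 0 h replicate 2 in turn.

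Extracellular proteases and their inhibitors were also called higher in large part: 12 of 24 tested members were called higher and 2 lower, or 9 and 1 without pairing by replicate number. MMP1, an interstitial collagenase, measured 8.401 and 20.03 TPM at 48 h, against 0 and 0.0622 TPM at 0 h (adjusted p = 0.000643). MMP24, a membrane-bound metalloproteinase, measured 9.26 and 11.3 TPM at 48 h, against 52.97 and 55.01 TPM at 0 h (log2 fold change -2.06), and MMP7, matrilysin, measured 5.45 and 54.2 TPM at 48 h, against 47.2 and 276 TPM at 0 h (log2 fold change -2.38). MMP7 was high in replicate 2 at both times, and 48 h replicate 2 exceeded 0 h replicate 1. ADAM10 and ADAM17, sheddases of surface ligands, were not called, with log2 fold changes of 0.15 and 0.11. MMP7 lost its call when any 1 of the 4 libraries was left out (highest adjusted p = 0.14). MMP7 lost its call without pairing (adjusted p = 0.532). The extracellular proteases and inhibitors list kept 9 of 12 higher and 1 of 2 lower calls without any 1 of the 4 libraries.

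EMT transcription factors rose in part: 5 of 13 tested members were called higher and 0 lower, or 2 and 0 without pairing by replicate number. HMGA2, a chromatin protein downstream of SMADs, measured 35.1 and 48.8 TPM at 48 h, against 7.49 and 11.8 TPM at 0 h (adjusted p = 0.00111, log2 fold change 2.26, SE 0.32). SOX4 measured 141 and 145 TPM at 48 h, against 68.6 and 43.4 TPM at 0 h (adjusted p = 0.000873, log2 fold change 1.61, SE 0.22). SNAI1, the repressor Snail, measured 5.48 and 3.34 TPM at 48 h, against 1.85 and 0.643 TPM at 0 h (adjusted p = 0.00512, log2 fold change 1.53, SE 0.28), and SNAI2, Slug, measured 10.9 and 1.58 TPM at 48 h, against 2.08 and 0.104 TPM at 0 h (adjusted p = 0.0178, log2 fold change 1.82, SE 0.42). SNAI2 overlapped between the times, with 48 h replicate 2 below 0 h replicate 1. The fifth called member was TCF4, named after its value was seen (adjusted p = 0.0208, log2 fold change 0.71, SE 0.17). ZEB1 measured 42.1 and 38.5 TPM at 48 h, against 28.5 and 27.2 TPM at 0 h, and was not called (log2 fold change 0.75, adjusted p = 0.171). ZEB2 and TWIST1 stayed low, at up to 4.03 and 3.86 TPM, and were not called; the fold change of TWIST1, -0.21, turned to 0.13 without 0 h replicate 1. SNAI1 lost its call without 0 h replicate 2 (adjusted p = 0.0508). SNAI2 lost its call when 48 h replicate 1, 0 h replicate 1 or 0 h replicate 2 was left out (highest adjusted p = 0.139). TCF4 lost its call when 48 h replicate 2, 0 h replicate 1 or 0 h replicate 2 was left out (highest adjusted p = 0.144). SNAI1, SNAI2 and TCF4 lost their calls without pairing (adjusted p = 0.165, 0.291 and 0.373). In the EMT transcription factors list the calls numbered 4, 4, 3 and 2 higher without 48 h replicate 1, 48 h replicate 2, 0 h replicate 1 and 0 h replicate 2 in turn.

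Among mesenchymal adhesion molecules and markers, 5 of 13 tested members were called higher and 0 lower, or 2 and 0 without pairing by replicate number. CDH2, N-cadherin, measured 182 and 122 TPM at 48 h, against 76.4 and 34.2 TPM at 0 h (log2 fold change 1.76). VIM, vimentin, measured 2245 and 1999 TPM at 48 h, against 1148 and 1026 TPM at 0 h (log2 fold change 1.20), and was abundant before treatment. CDH11, a cadherin of mesenchyme, measured 58.5 and 9.54 TPM at 48 h, against 2.37 and 0.643 TPM at 0 h (log2 fold change 3.64), with 48 h replicate 1 far above replicate 2. NT5E, the surface nucleotidase CD73, measured 189 and 228 TPM at 48 h, against 30.9 and 31.4 TPM at 0 h (log2 fold change 2.93), with close agreement between replicates. SPOCK1, a matrix proteoglycan, measured 88.2 and 99.2 TPM at 48 h, against 21.6 and 3.01 TPM at 0 h (log2 fold change 3.54). The markers S100A4, CD44, FGFR1 and AXL were not called, with log2 fold changes of -0.32, 0.43, 0.35 and -0.35. VIM lost its call when 48 h replicate 1, 0 h replicate 1 or 0 h replicate 2 was left out (highest adjusted p = 0.121). CDH2, CDH11 and SPOCK1 lost their calls without pairing (adjusted p = 0.0685, 0.0971 and 0.0605). The mesenchymal adhesion and markers list kept 4 of 5 higher calls without any 1 of the 4 libraries.

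Contractile and focal adhesion genes split in both directions: 5 of 24 tested members were called higher and 2 lower, or 1 and 2 without pairing by replicate number; the median was 0.15, and -0.09 without centring. TPM1, tropomyosin 1, measured 4828 and 3365 TPM at 48 h, against 1479 and 799 TPM at 0 h (log2 fold change 2.12). MYL9, a myosin light chain, measured 8.09 and 4.82 TPM at 48 h, against 4.13 and 0.456 TPM at 0 h (log2 fold change 1.64). MYLK, the kinase that activates myosin, measured 3.98 and 8.69 TPM at 48 h, against 39.995 and 76.5 TPM at 0 h (log2 fold change -2.79), and SDPR, a caveola coat protein, measured 1.31 and 1.86 TPM at 48 h, against 17.4 and 24.3 TPM at 0 h (log2 fold change -2.84). ACTA2, smooth muscle actin, was not called (log2 fold change -0.37, adjusted p = 0.549). Among YAP and TEAD targets, 3 of 19 tested members were called higher and 1 lower, or 0 and 1 without pairing by replicate number. The shares over all tested genes were 5.26% higher and 4.36% lower. CTGF measured 159.9 and 92.6 TPM at 48 h, against 58.3 and 14.2 TPM at 0 h (log2 fold change 2.26) and MYOF, myoferlin, measured 47.4 and 68.9 TPM at 48 h, against 225 and 248.8 TPM at 0 h (log2 fold change -1.80), while F3 and DLC1 rose by 1.87 and 1.18 on the log2 scale. DLC1 overlapped between the times, at 25.5 and 11.7 TPM at 48 h, against 13.1 and 5.45 TPM at 0 h. The classical targets CYR61 and ANKRD1 were not called, at -0.04 and -1.74. MYL9 lost its call when 48 h replicate 2 or 0 h replicate 2 was left out (highest adjusted p = 0.136). CTGF lost its call when 48 h replicate 2, 0 h replicate 1 or 0 h replicate 2 was left out (highest adjusted p = 0.165). TPM1 lost its call when any 1 of the 4 libraries was left out (highest adjusted p = 0.139). TPM1, MYL9, CTGF, F3 and DLC1 lost their calls without pairing (adjusted p = 0.0623, 0.315, 0.26, 0.0755 and 0.371). In the contractile and focal adhesion genes list the calls numbered 2, 3, 3 and 1 higher without 48 h replicate 1, 48 h replicate 2, 0 h replicate 1 and 0 h replicate 2 in turn. The YAP and TEAD targets list kept 2 of 3 higher and 1 of 1 lower calls without any 1 of the 4 libraries.

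**Figure D3:**
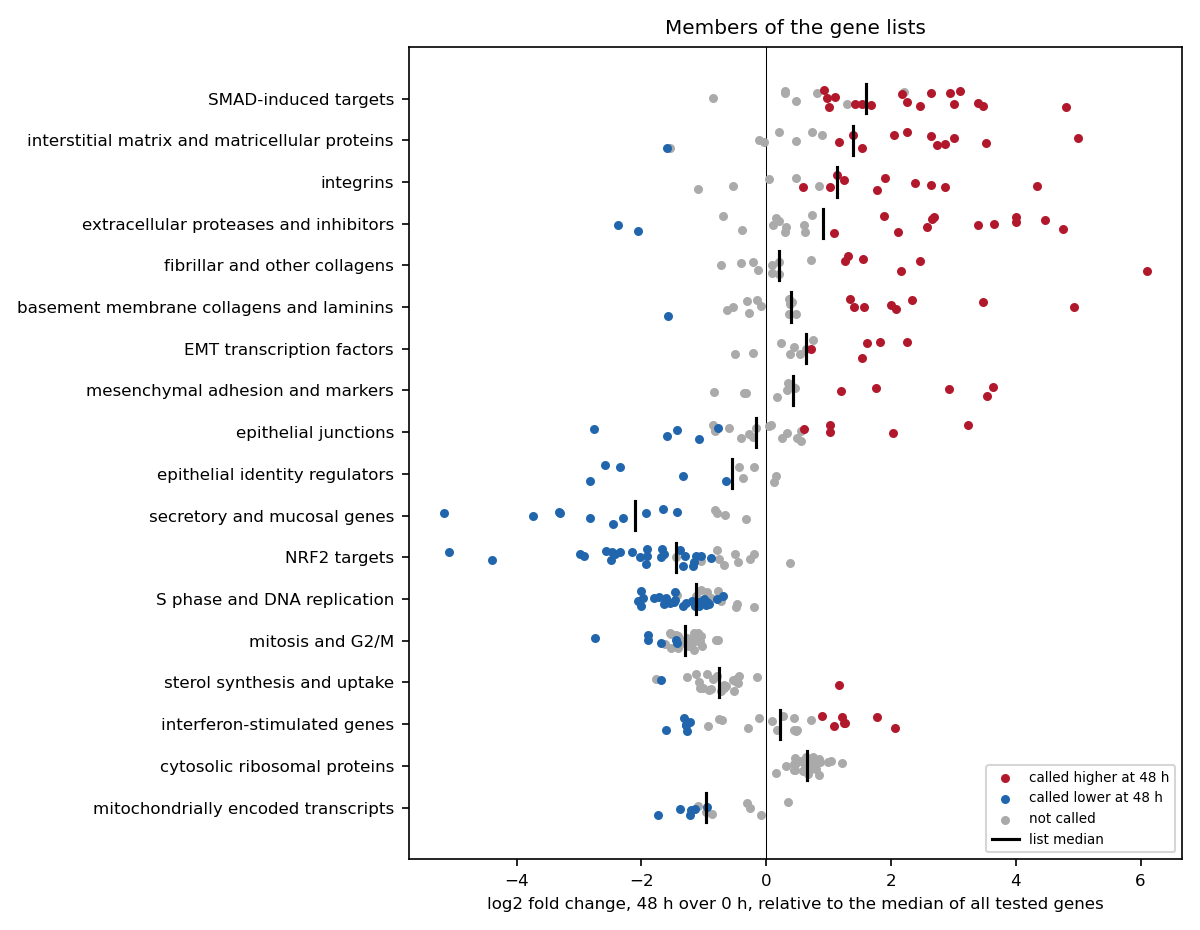
Each point is 1 tested member of the list named on the y axis, placed by its log2 fold change (48 h over 0 h, relative to the median of all genes); red members were called higher, blue lower and grey neither, and black bars are list medians. Among the lists drawn, the medians ran from -2.11 for secretory and mucosal genes to 1.60 for SMAD-induced targets; the 30 cytosolic ribosomal proteins lie above 0 (29 without centring on the median shift) with 0 calls.

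Epithelial junction genes split in both directions: 5 of 25 tested members were called higher and 5 lower, or 3 and 2 without pairing by replicate number. CDH1, E-cadherin (ENSG00000039068; chromosome 16, 68737225 to 68835548), measured 2.03 and 8.48 TPM at 48 h, against 30.1 and 57.1 TPM at 0 h. Both 48 h values lay below both 0 h values, and the replicate 2 library was higher at each time. The limma test gave adjusted p = 0.000621, log2 fold change -2.76, SE 0.36. PKP2, a desmosomal plaque protein, measured 1.61 and 2.01 TPM at 48 h, against 7.97 and 9.97 TPM at 0 h (adjusted p = 0.00437, log2 fold change -1.59, SE 0.28), and TJP3, a tight junction scaffold, measured 0.2504 and 1.105 TPM at 48 h, against 3.798 and 4.52 TPM at 0 h (adjusted p = 0.0274, log2 fold change -1.43, SE 0.36). CLDN4, a tight junction claudin, rose, at 47.4 and 23.3 TPM at 48 h, against 3.01 and 3.57 TPM at 0 h (adjusted p = 0.00186, log2 fold change 3.23, SE 0.50), as did DSC2, a desmosomal cadherin, at 20.2 and 18.2 TPM at 48 h, against 5.17 and 4.48 TPM at 0 h (adjusted p = 0.00204, log2 fold change 2.03, SE 0.32). CTNNB1, beta-catenin, measured 373 and 343 TPM at 48 h, against 224 and 190.2 TPM at 0 h (adjusted p = 0.00622, log2 fold change 1.02, SE 0.19). Other calls, named after their values were seen, included F11R and CTNNA1 higher and CTNND1 lower. EPCAM measured 2.06 and 9.61 TPM at 48 h, against 8.95 and 9.37 TPM at 0 h: the 48 h replicates disagreed, and it was not called (adjusted p = 0.33). CTNNB1 lost its call when 48 h replicate 1 or 0 h replicate 2 was left out (highest adjusted p = 0.0933). CTNND1 lost its call when 48 h replicate 1, 0 h replicate 1 or 0 h replicate 2 was left out (highest adjusted p = 0.0929). TJP3, F11R and CTNNA1 lost their calls when any 1 of the 4 libraries was left out (highest adjusted p = 0.145, 0.31 and 0.261). CDH1, TJP3, F11R and CTNNA1 lost their calls without pairing (adjusted p = 0.101, 0.0555, 0.105 and 0.11). In the epithelial junctions list the calls numbered 2, 3, 3 and 2 higher and, in the same order, 2, 3, 2 and 2 lower without 48 h replicate 1, 48 h replicate 2, 0 h replicate 1 and 0 h replicate 2 in turn.

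Among apicobasal polarity genes, 0 of 12 tested members were called higher and 2 lower, or 0 and 0 without pairing by replicate number. LLGL2, a lateral polarity factor, measured 14.7 and 20.1 TPM at 48 h, against 55.9 and 60.9 TPM at 0 h (log2 fold change -1.47). PARD6B, an apical one, measured 6.93 and 9.76 TPM at 48 h, against 20.9 and 26.2 TPM at 0 h (log2 fold change -1.17). Keratins gave 2 lower calls among 8 tested and none without pairing. KRT19, a keratin of simple epithelia, measured 15.5 and 16.4 TPM at 48 h, against 105 and 103 TPM at 0 h (log2 fold change -2.40), and KRT15, a basal keratin, measured 1.17 and 0.904 TPM at 48 h, against 3.61 and 5.58 TPM at 0 h (log2 fold change -1.21). KRT18 measured 1832 and 2601 TPM at 48 h, against 4244 and 5667 TPM at 0 h, and was not called (log2 fold change -0.93, adjusted p = 0.0918). PARD6B lost its call when 48 h replicate 2, 0 h replicate 1 or 0 h replicate 2 was left out (highest adjusted p = 0.102). LLGL2, KRT19 and KRT15 lost their calls when any 1 of the 4 libraries was left out (highest adjusted p = 0.191, 0.186 and 0.281). LLGL2, PARD6B, KRT19 and KRT15 lost their calls without pairing (adjusted p = 0.125, 0.0883, 0.0783 and 0.0536). The apicobasal polarity list kept 0 of 2 lower calls without any 1 of the 4 libraries. The keratins list kept 0 of 2 lower calls without any 1 of the 4 libraries.

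Regulators of epithelial identity fell in part: 0 of 10 tested members were called higher and 5 lower, or 0 and 1 without pairing by replicate number. SPDEF, an ETS factor of goblet cells, measured 0.0835 and 0.326 TPM at 48 h, against 5.98 and 13.1 TPM at 0 h (log2 fold change -2.82). The related ETS factors EHF, at 1.14 and 1.28 TPM at 48 h, against 10.1 and 20.5 TPM at 0 h (log2 fold change -2.58), and ELF3, at 15.5 and 81.98 TPM at 48 h, against 193 and 252 TPM at 0 h (log2 fold change -2.35), fell as well. The replicates of ELF3 differed at 48 h, and no value overlapped with 0 h. FOXA2 and KLF5 were the other called members, named after their values were seen, and FOXA1 was not called (-0.44). ELF3 lost its call when 48 h replicate 1 or 0 h replicate 1 was left out (highest adjusted p = 0.158). EHF lost its call when 48 h replicate 2, 0 h replicate 1 or 0 h replicate 2 was left out (highest adjusted p = 0.134). FOXA2 and KLF5 lost their calls when any 1 of the 4 libraries was left out (highest adjusted p = 0.15 and 0.218). EHF, ELF3, FOXA2 and KLF5 lost their calls without pairing (adjusted p = 0.0764, 0.165, 0.0576 and 0.0877). In the epithelial identity regulators list the calls numbered 2, 2, 1 and 2 lower without 48 h replicate 1, 48 h replicate 2, 0 h replicate 1 and 0 h replicate 2 in turn.

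Secretory and mucosal genes gave the lowest list median, -2.11: 0 of 14 tested members were called higher and 10 lower, or 0 and 5 without pairing by replicate number. Their summed level was 18.1 and 48.5 TPM at 48 h, against 245 and 726 TPM at 0 h. AGR2, SLPI and MUC5AC of this list are themselves among the largest falls, so these values are description and not support. Of the 20 genes listed, only those that passed the filter were tested. MUC5AC reached 1 TPM in no library from 36 h on, and passed the filter through the earlier times, where it was higher. SLPI, a secreted protease inhibitor, measured 2.09 and 0 TPM at 48 h, against 14.5 and 48.05 TPM at 0 h (adjusted p = 0.0127, log2 fold change -3.74, SE 0.80). MUC5AC, a gel-forming airway mucin, measured 0.0278 and 0 TPM at 48 h, against 3.63 and 29.7 TPM at 0 h (adjusted p = 0.00302, log2 fold change -3.32, SE 0.56). KRT4, a keratin of mucosal epithelium outside the list, measured 0.0278 and 0 TPM at 48 h, against 3.404 and 28.2 TPM at 0 h (adjusted p = 0.00624, log2 fold change -3.25, SE 0.62). These 3 genes were listed at 0 in 48 h replicate 2, where a 0 can be a failed estimate. CEACAM6, a surface glycoprotein of mucosal epithelium, measured 1.39 and 5.87 TPM at 48 h, against 27.3 and 78.3 TPM at 0 h (adjusted p = 0.000193, log2 fold change -3.31, SE 0.36). The fibrinogen chains FGA, FGB and FGG were also called lower, named after their values were seen, with log2 fold changes of -2.83, -2.29 and -1.43. SLPI and KRT4 lost their calls when 48 h replicate 2 or 0 h replicate 2 was left out (highest adjusted p = 0.131 and 0.0917). FGG lost its call when any 1 of the 4 libraries was left out (highest adjusted p = 0.197). FGA, FGB and FGG lost their calls without pairing (adjusted p = 0.149, 0.0606 and 0.501). In the secretory and mucosal genes list the calls numbered 8, 6, 8 and 5 lower without 48 h replicate 1, 48 h replicate 2, 0 h replicate 1 and 0 h replicate 2 in turn.

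NRF2 is the transcription factor of the oxidant response. It binds DNA with small MAF proteins at antioxidant response elements, whose core is written TGACNNNGC, and A549 is known for a loss-of-function change in KEAP1, the protein that destroys NRF2, so its targets run high in this line. Promoters of 3 of these targets are shown because they hold that core and their genes were among the list's members called lower; they are from RefSeq (GRCh38.p14), 250 bases before to 50 after the start, all genes on the minus strand, printed 5′ to 3′ with the matched bases in capitals. In each the match lies on the other strand and is printed as its reverse complement. They are GPX2 (chr14:64942696-64942995), CYP4F11 (chr19:15934818-15935117) and PIR (chrX:15493284-15493583).
GPX2: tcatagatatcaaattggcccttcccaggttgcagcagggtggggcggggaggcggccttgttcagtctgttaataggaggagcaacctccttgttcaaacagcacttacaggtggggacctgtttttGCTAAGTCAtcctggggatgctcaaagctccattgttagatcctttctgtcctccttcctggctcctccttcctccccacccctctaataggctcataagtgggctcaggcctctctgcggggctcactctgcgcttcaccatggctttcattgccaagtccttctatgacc
CYP4F11: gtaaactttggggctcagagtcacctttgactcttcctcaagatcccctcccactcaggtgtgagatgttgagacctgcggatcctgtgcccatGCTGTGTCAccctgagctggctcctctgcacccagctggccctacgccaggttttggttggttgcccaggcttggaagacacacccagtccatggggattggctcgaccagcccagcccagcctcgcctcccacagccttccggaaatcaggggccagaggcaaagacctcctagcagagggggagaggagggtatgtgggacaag
PIR: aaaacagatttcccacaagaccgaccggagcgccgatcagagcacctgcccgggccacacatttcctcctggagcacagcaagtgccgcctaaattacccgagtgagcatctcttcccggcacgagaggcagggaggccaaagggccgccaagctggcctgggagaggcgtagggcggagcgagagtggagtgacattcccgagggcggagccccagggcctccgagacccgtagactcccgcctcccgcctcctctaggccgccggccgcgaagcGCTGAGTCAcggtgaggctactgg
The match begins at position -122 in GPX2, -156 in CYP4F11 and 27 in PIR, counted from the start site. Of 27305 RefSeq promoters of the same length, 13.6% hold the core on either strand. Only 25 of the 35 list members had a promoter entry, and the core was held by 6 of the 17 called lower and by 2 of the 8 not called lower; with so much of the list without an entry, nothing is read from these counts. A match is a string of letters and not a bound site.

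Among NRF2 targets, 0 of 35 tested members were called higher and 25 lower, or 0 and 11 without pairing by replicate number, with a median log2 fold change of -1.44, or -1.56 in replicate 1 and -1.48 in replicate 2. Summed, they made up 10074 and 11949.6 TPM at 48 h, against 35801 and 38496 TPM at 0 h. GPX2, a glutathione peroxidase, measured 4.45 and 19.6 TPM at 48 h, against 143 and 470.1 TPM at 0 h (adjusted p = 0.000936, log2 fold change -4.39, SE 0.61). CYP4F11, a fatty acid hydroxylase, measured 0.862 and 2.26 TPM at 48 h, against 14.4 and 15.7 TPM at 0 h (adjusted p = 0.000346, log2 fold change -2.47, SE 0.30), and PIR, pirin, measured 14.6 and 42.1 TPM at 48 h, against 94.8 and 136 TPM at 0 h (adjusted p = 0.000268, log2 fold change -1.91, SE 0.22). CYP4F3, a relative of CYP4F11, measured 0.807 and 3.87 TPM at 48 h, against 16.1 and 42.8 TPM at 0 h (adjusted p = 0.000237, log2 fold change -2.98, SE 0.34). AKR1B10, an aldo-keto reductase, measured 387 and 643 TPM at 48 h, against 2988 and 3343 TPM at 0 h (adjusted p = 0.00653, log2 fold change -2.43, SE 0.46), lower in both replicates. NQO1, the quinone reductase used as the standard NRF2 readout, measured 820.4 and 1079 TPM at 48 h, against 2483 and 2372 TPM at 0 h (adjusted p = 0.036, log2 fold change -1.13, SE 0.30). Log2 fold changes were -2.15 for GCLC, the catalytic subunit of glutathione synthesis, and -1.68 for TXNRD1, thioredoxin reductase. GCLC, TXNRD1, CYP4F11 and PIR were named after their values were seen. AKR1C1 and AKR1C2 were also called lower (-2.49 and -2.34); they are near-identical copies whose reads could be split between them. HMOX1, heme oxygenase 1, was the member above 0 (0.38, not called). Without any 1 of the 4 libraries 13 of the 25 calls held. AKR1B10 lost its call without 0 h replicate 1 (adjusted p = 0.0738). NQO1, AKR1C1 and AKR1C2 lost their calls when any 1 of the 4 libraries was left out (highest adjusted p = 0.219, 0.16 and 0.214). GPX2, PIR, CYP4F3, AKR1B10, NQO1, AKR1C1 and AKR1C2 lost their calls without pairing (adjusted p = 0.089, 0.101, 0.0666, 0.056, 0.107, 0.126 and 0.181). In the NRF2 targets list the calls numbered 18, 14, 13 and 14 lower without 48 h replicate 1, 48 h replicate 2, 0 h replicate 1 and 0 h replicate 2 in turn.

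Genes of DNA replication were lower at 48 h. In the S phase list, 0 of 36 tested members were called higher and 26 lower, or 0 and 13 without pairing by replicate number, and all 36 had fold changes below 0, with a median of -1.12. TK1, thymidine kinase, measured 19.5 and 50.6 TPM at 48 h, against 145 and 171 TPM at 0 h (adjusted p = 0.0165, log2 fold change -2.05, SE 0.46). TYMS, thymidylate synthase, measured 12.9 and 27.9 TPM at 48 h, against 95.2 and 92.1 TPM at 0 h (adjusted p = 0.0127, log2 fold change -2.01, SE 0.43). In both, 48 h replicate 1 was the lowest library. Only 2 of the 26 calls held without any 1 of the 4 libraries. Among mitosis and G2/M genes, 0 of 32 tested members were called higher and 6 lower, or 0 and 0 without pairing by replicate number, although all 32 lay below 0 (median -1.30, or -1.64 in replicate 1 and -0.93 in replicate 2). MKI67, the proliferation marker Ki-67, measured 7.04 and 25.3 TPM at 48 h, against 105 and 123 TPM at 0 h (adjusted p = 0.0273, log2 fold change -2.75, SE 0.69). At 36 h MKI67 measured 101 and 38.2 TPM, and at 72 h 19.1 and 46.5 TPM. PLK1, a mitotic kinase, measured 11.99 and 16.1 TPM at 48 h, against 60.8 and 67.6 TPM at 0 h (adjusted p = 0.037, log2 fold change -1.90, SE 0.51), and NUSAP1, a spindle protein, measured 22.8 and 62.7 TPM at 48 h, against 148 and 192 TPM at 0 h (adjusted p = 0.0175, log2 fold change -1.89, SE 0.43). TK1, TYMS, MKI67 and NUSAP1 lost their calls when 48 h replicate 1, 0 h replicate 1 or 0 h replicate 2 was left out (highest adjusted p = 0.12, 0.112, 0.196 and 0.126). PLK1 lost its call when any 1 of the 4 libraries was left out (highest adjusted p = 0.212). TK1, MKI67, PLK1 and NUSAP1 lost their calls without pairing (adjusted p = 0.0515, 0.0524, 0.0662 and 0.109). In the S phase and DNA replication list the calls numbered 4, 17, 2 and 6 lower without 48 h replicate 1, 48 h replicate 2, 0 h replicate 1 and 0 h replicate 2 in turn. In the mitosis and G2/M list the calls numbered 0, 4, 0 and 0 lower without 48 h replicate 1, 48 h replicate 2, 0 h replicate 1 and 0 h replicate 2 in turn.

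Among G1 cyclins and CDK inhibitors, 0 of 12 tested members were called higher and 1 lower, or 0 and 0 without pairing. The median log2 fold change was 0.05. CCND3, cyclin D3, was called lower at 32.2 and 63.7 TPM at 48 h, against 133 and 178 TPM at 0 h (adjusted p = 0.00477, log2 fold change -1.51, SE 0.27). CDKN1A, the CDK inhibitor p21, measured 172 and 109 TPM at 48 h, against 106 and 58.6 TPM at 0 h, and was not called (log2 fold change 1.02, adjusted p = 0.0652). MYC measured 88.5 and 43.5 TPM at 48 h, against 96.6 and 71.2 TPM at 0 h, and was not called (log2 fold change -0.18, adjusted p = 0.724). CCND3 lost its call without 0 h replicate 1 (adjusted p = 0.0502). CCND3 lost its call without pairing (adjusted p = 0.0682).

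Sterol genes differed between the replicates. Their median log2 fold change was -0.76, made of -1.62 in replicate 1 and -0.08 in replicate 2; 1 of 24 tested members were called higher and 1 lower, or 1 and 0 without pairing by replicate number. These counts stand near the shares over all tested genes, 5.26% higher and 4.36% lower. HMGCS1, a step of the mevalonate route, measured 29.7 and 105 TPM at 48 h, against 237 and 191 TPM at 0 h (log2 fold change -1.68), and STARD4, a cholesterol carrier, measured 59.03 and 69.1 TPM at 48 h, against 38.2 and 28.3 TPM at 0 h (log2 fold change 1.17). Among fatty acid synthesis genes, 0 of 11 tested members were called higher and 2 lower, or 0 and 1 without pairing by replicate number. FASN, fatty acid synthase, measured 14.1 and 15.01 TPM at 48 h, against 105 and 62.3 TPM at 0 h (log2 fold change -2.17), and ELOVL6, an elongase, measured 7.98 and 13.6 TPM at 48 h, against 36.7 and 29.8 TPM at 0 h (log2 fold change -1.34). At 36 h FASN measured 109.7 and 28.7 TPM, and at 72 h 34.9 and 26.98 TPM. HMGCS1 and ELOVL6 lost their calls when 48 h replicate 1 or 0 h replicate 1 was left out (highest adjusted p = 0.168 and 0.0913). FASN lost its call when 48 h replicate 1 or 0 h replicate 2 was left out (highest adjusted p = 0.0723). STARD4 lost its call when 48 h replicate 1, 48 h replicate 2 or 0 h replicate 2 was left out (highest adjusted p = 0.224). HMGCS1 and FASN lost their calls without pairing (adjusted p = 0.111 and 0.1). The sterol synthesis and uptake list kept 0 of 1 higher and 0 of 1 lower calls without any 1 of the 4 libraries. The fatty acid synthesis list kept 0 of 2 lower calls without any 1 of the 4 libraries.

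Glycolysis and hypoxia response genes gave 2 higher and 5 lower calls among 27, or 1 and 5 without pairing. The shares over all tested genes were 5.26% higher and 4.36% lower in the paired fit. SLC2A3, a glucose transporter, measured 81.2 and 162 TPM at 48 h, against 40.4 and 48.7 TPM at 0 h (log2 fold change 1.59). VEGFA, the angiogenic factor, measured 227 and 51.9 TPM at 48 h, against 23.4 and 26.9 TPM at 0 h (log2 fold change 2.31), with replicate 1 far above replicate 2 at 48 h. ALDOC, an aldolase, measured 0.751 and 1.63 TPM at 48 h, against 7.16 and 9.66 TPM at 0 h (log2 fold change -1.89), and EGLN3, an oxygen sensor, measured 1.78 and 1.41 TPM at 48 h, against 10.3 and 6.22 TPM at 0 h (log2 fold change -1.57). ADM, above, was the largest fall of the list, and the main glycolytic enzymes GAPDH, PKM and LDHA were not called (-0.45, -0.07 and -0.03). EGLN3 lost its call without 0 h replicate 1 (adjusted p = 0.0883). VEGFA lost its call when 48 h replicate 1 or 0 h replicate 1 was left out (highest adjusted p = 0.148). VEGFA lost its call without pairing (adjusted p = 0.0921). The glycolysis and hypoxia response list kept 1 of 2 higher and 4 of 5 lower calls without any 1 of the 4 libraries.

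Secreted ligands outside the pathway changed in both directions. Among the IGFL and chorionic gonadotropin genes, 8 of 10 tested members were called higher and 0 lower, or 8 and 0 without pairing by replicate number, and the list summed to 942 and 1717 TPM at 48 h, against 11.9 and 7.05 TPM at 0 h. The list joins separate families and was chosen with earlier results of these data known. IGFL1, IGFL2, IGFL3 and CGB8 are themselves among the largest rises, so its count and sum are description and not support. CGB8, a beta subunit of the placental hormone chorionic gonadotropin, measured 43.2 and 46.7 TPM at 48 h, against 1.72 and 0.912 TPM at 0 h (log2 fold change 4.56); the CGB genes are near-identical copies, so the split of reads among them is uncertain. IL11, an IL-6 family cytokine known from fibrosis, measured 885 and 362 TPM at 48 h, against 53.7 and 22.6 TPM at 0 h (log2 fold change 4.21). In the list of neutrophil chemokines and cytokines, which holds IL11, 2 of 16 tested members were called higher and 2 lower. Without pairing these were 1 and 2, and the median log2 fold change was -0.08. Of the other chemokines and cytokines, CCL2 rose, at 26.1 and 57.96 TPM at 48 h, against 15.2 and 19.5 TPM at 0 h (log2 fold change 1.36). CXCL5, a neutrophil chemokine, measured 10.7 and 29.2 TPM at 48 h, against 93.2 and 112 TPM at 0 h (log2 fold change -2.22), and CSF1, the macrophage growth factor, measured 1.98 and 2.31 TPM at 48 h, against 12.4 and 12.7 TPM at 0 h (log2 fold change -1.88). IL6 and CXCL1 were not called (0.54 and -1.28). CXCL5 lost its call when 48 h replicate 1, 0 h replicate 1 or 0 h replicate 2 was left out (highest adjusted p = 0.158). CCL2 lost its call when 48 h replicate 2, 0 h replicate 1 or 0 h replicate 2 was left out (highest adjusted p = 0.191). CCL2 lost its call without pairing (adjusted p = 0.0935). The IGFL and chorionic gonadotropin genes list kept 7 of 8 higher calls without any 1 of the 4 libraries.

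Among activin, BMP and GDF ligands with their antagonists, 10 of 20 tested members were called higher and 2 lower, or 5 and 2 without pairing by replicate number. GREM1, a secreted BMP antagonist, measured 66.3 and 101 TPM at 48 h, against 5.23 and 4.64 TPM at 0 h (log2 fold change 4.04), with replicates close to each other at 0 h. INHBB, the activin B subunit, fell to 2.95 and 2.89 TPM at 48 h, against 18.7 and 43.2 TPM at 0 h (log2 fold change -2.68), while INHBA, the activin A subunit, rose, at 13.4 and 1.76 TPM at 48 h, against 0.187 and 0.0207 TPM at 0 h (log2 fold change 2.75). BMP6 measured 18.4 and 46.4 TPM at 48 h, against 6.16 and 6.18 TPM at 0 h (log2 fold change 2.31). GDF15, a stress-induced member of the TGF-beta family, measured 10.2 and 11.05 TPM at 48 h, against 80.03 and 94.9 TPM at 0 h (log2 fold change -2.69). BMP6 lost its call without 0 h replicate 2 (adjusted p = 0.0521). INHBA lost its call when any 1 of the 4 libraries was left out (highest adjusted p = 0.245). INHBA lost its call without pairing (adjusted p = 0.2). In the activin, BMP and GDF ligands with antagonists list the calls numbered 5, 9, 7 and 4 higher without 48 h replicate 1, 48 h replicate 2, 0 h replicate 1 and 0 h replicate 2 in turn.

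EGF family genes gave 2 higher and 2 lower calls among 10, or 0 and 2 without pairing. EREG, epiregulin, measured 3.09 and 4.89 TPM at 48 h, against 44.9 and 32.9 TPM at 0 h (log2 fold change -2.77), and with AREG above made up the falls. HBEGF measured 7.62 and 4.62 TPM at 48 h, against 3.01 and 1.202 TPM at 0 h (log2 fold change 1.46) and NRG1, neuregulin 1, measured 243 and 371 TPM at 48 h, against 221 and 120.1 TPM at 0 h (log2 fold change 1.11). The receptor EGFR was not called (0.11). Among insulin-like growth factor binding proteins and their partners, 2 of 12 tested members were called higher and 2 lower, or 2 and 1 without pairing by replicate number. IGFBP5 measured 19.5 and 13.3 TPM at 48 h, against 0.394 and 0.249 TPM at 0 h (log2 fold change 3.93). IGFBP7, the more abundant, measured 939 and 1343 TPM at 48 h, against 184 and 77.6 TPM at 0 h (log2 fold change 3.45). IGFBP6 fell, at 24.9 and 26.8 TPM at 48 h, against 92.5 and 88.2 TPM at 0 h (log2 fold change -1.53), and IRS2, an insulin receptor substrate, fell with a log2 fold change of -0.94. IGFBP6 lost its call when 48 h replicate 2 or 0 h replicate 1 was left out (highest adjusted p = 0.11). NRG1 lost its call when 48 h replicate 2, 0 h replicate 1 or 0 h replicate 2 was left out (highest adjusted p = 0.313). HBEGF and IRS2 lost their calls when any 1 of the 4 libraries was left out (highest adjusted p = 0.126 and 0.324). HBEGF, NRG1 and IRS2 lost their calls without pairing (adjusted p = 0.207, 0.149 and 0.272). The EGF family ligands and receptors list kept 0 of 2 higher and 2 of 2 lower calls without any 1 of the 4 libraries. The insulin-like growth factor binding proteins list kept 2 of 2 higher and 0 of 2 lower calls without any 1 of the 4 libraries.

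Among immediate early genes, 4 of 19 tested members were called higher and 1 lower, or 2 and 0 without pairing by replicate number. IER3 measured 475 and 479.96 TPM at 48 h, against 117 and 118 TPM at 0 h (log2 fold change 2.24), with the replicates within a few TPM of each other at each time. JUNB, an AP-1 subunit, measured 317 and 238 TPM at 48 h, against 97.1 and 51.4 TPM at 0 h (log2 fold change 2.17), and DUSP1, a MAP kinase phosphatase, measured 429 and 247 TPM at 48 h, against 239 and 81.4 TPM at 0 h (log2 fold change 1.45). DUSP5, another of these phosphatases, measured 15.02 and 13.96 TPM at 48 h, against 39.02 and 40.9 TPM at 0 h (log2 fold change -1.17). FOS and EGR1 were not called (-1.97 and -1.83). JUNB and DUSP1 lost their calls without 0 h replicate 2 (adjusted p = 0.0533 and 0.0839). DUSP5 lost its call when any 1 of the 4 libraries was left out (highest adjusted p = 0.246). DUSP1 and DUSP5 lost their calls without pairing (adjusted p = 0.243 and 0.0892). The immediate early genes list kept 1 of 4 higher and 0 of 1 lower calls without any 1 of the 4 libraries.

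Among unfolded protein and ATF4 response genes, 2 of 24 tested members were called higher and 0 lower, or 0 and 0 without pairing by replicate number, the calls being DDIT4, at 344 and 134 TPM at 48 h, against 113 and 96.9 TPM at 0 h (log2 fold change 1.27), and DDIT3, at 47.2 and 18.9 TPM at 48 h, against 19.4 and 12.3 TPM at 0 h (log2 fold change 1.14); with TMM scaling there were 0. With 5.26% of all tested genes called higher and 4.36% lower, the count of this list stands near the share of all genes. DDIT3 overlapped between the times, with 48 h replicate 2 below 0 h replicate 1. The chaperone HSPA5 was not called (-0.08). Among heat shock genes, 2 of 15 tested members were called higher and 3 lower, or 0 and 1 without pairing by replicate number. HSP90AA1, the inducible HSP90, measured 252 and 284 TPM at 48 h, against 917 and 678 TPM at 0 h (log2 fold change -1.33), and HSPB1, a small heat shock protein, measured 726 and 704 TPM at 48 h, against 312 and 223 TPM at 0 h (log2 fold change 1.67). CRYAB rose by 1.36, and HSPA4L and BAG3 fell, with log2 fold changes of -0.94 and -0.75. HSPB1 lost its call when 48 h replicate 1 or 0 h replicate 2 was left out (highest adjusted p = 0.249). DDIT4, DDIT3 and HSPA4L lost their calls when 48 h replicate 1, 0 h replicate 1 or 0 h replicate 2 was left out (highest adjusted p = 0.284, 0.313 and 0.221). BAG3 lost its call when 48 h replicate 2, 0 h replicate 1 or 0 h replicate 2 was left out (highest adjusted p = 0.189). CRYAB lost its call when any 1 of the 4 libraries was left out (highest adjusted p = 0.353). DDIT4, DDIT3, HSPB1, CRYAB, HSPA4L and BAG3 lost their calls without pairing (adjusted p = 0.211, 0.175, 0.0656, 0.124, 0.063 and 0.294). The unfolded protein and ATF4 response list kept 0 of 2 higher calls without any 1 of the 4 libraries. The heat shock genes list kept 0 of 2 higher and 1 of 3 lower calls without any 1 of the 4 libraries.

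Interferon-stimulated and antigen presentation genes split: 7 of 26 tested members were called higher and 6 lower, or 4 and 1 without pairing by replicate number. IFI44 measured 3.28 and 6.88 TPM at 48 h, against 1.14 and 0.228 TPM at 0 h (log2 fold change 2.07) and IFI44L measured 1.61 and 3.04 TPM at 48 h, against 0.208 and 0.0207 TPM at 0 h (log2 fold change 1.78), both low genes. HLA-B, a class I antigen-presenting molecule, measured 16.6 and 23.9 TPM at 48 h, against 11.1 and 7.63 TPM at 0 h (log2 fold change 1.27). PSMB9, an immunoproteasome subunit, measured 2.75 and 8.13 TPM at 48 h, against 18.3 and 21.7 TPM at 0 h (log2 fold change -1.61). OAS3, a sensor of double-stranded RNA, measured 4.95 and 9.99 TPM at 48 h, against 19.8 and 24.7 TPM at 0 h (log2 fold change -1.28), and IFIT1 fell with a log2 fold change of -1.32. IFI44L lost its call without 0 h replicate 2 (adjusted p = 0.0659). IFI44 and HLA-B lost their calls when 48 h replicate 2 or 0 h replicate 2 was left out (highest adjusted p = 0.133 and 0.0955). IFIT1 lost its call when 48 h replicate 1, 48 h replicate 2 or 0 h replicate 1 was left out (highest adjusted p = 0.203). OAS3 lost its call when 48 h replicate 1, 0 h replicate 1 or 0 h replicate 2 was left out (highest adjusted p = 0.2). PSMB9 and IFIT1 lost their calls without pairing (adjusted p = 0.0616 and 0.165). In the interferon-stimulated genes list the calls numbered 4, 1, 5 and 1 higher and, in the same order, 3, 3, 2 and 3 lower without 48 h replicate 1, 48 h replicate 2, 0 h replicate 1 and 0 h replicate 2 in turn.

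Of 30 cytosolic ribosomal protein genes 0 were called by limma, with or without pairing or with TMM scaling. At an unadjusted p below 0.05 there were 9, or 3 without pairing. All 30 had fold changes above 0, or 29 without centring on the median shift; the median was 0.65, or 0.61 with TMM scaling and 0.42 without centring. Their summed level was 106189 and 91499 TPM at 48 h, against 74022 and 70004 TPM at 0 h. Ribosome biogenesis genes, which build the ribosome, gave 0 calls among 20, 3 of them at an unadjusted p below 0.05, and a median of -0.19. Of these 20 genes, 0 had a fold change above 0, also with TMM scaling and without centring. Mitochondrially encoded transcripts, which bear on RNA quality, gave 6 lower calls among 13 and 0 without pairing, with a median of -0.96. MT-ND1, a subunit of respiratory complex I, measured 75.5 and 59.4 TPM at 48 h, against 333 and 208 TPM at 0 h (adjusted p = 0.0235, log2 fold change -1.73, SE 0.42). At 36 h MT-ND1 measured 344 and 77.2 TPM, and at 72 h 221 and 98.7 TPM. In replicate 1 its 36 h value was thus not below that of 0 h. MT-CYB and MT-ND4L fell with log2 fold changes of -1.38 and -1.23. Nuclear genes of the respiratory chain gave 0 calls among 26, 1 of them at an unadjusted p below 0.05 (median 0.02). MEG3, an imprinted long non-coding RNA (chromosome 14, 100779410 to 100861031), measured 96.2 and 127 TPM at 48 h, against 9.67 and 9.37 TPM at 0 h (adjusted p = 3.69e-05, log2 fold change 3.64, SE 0.31), while the nuclear transcripts MALAT1 and NEAT1 were not called (-0.09 and -0.09). MT-ND1 and MT-ND4L lost their calls when 48 h replicate 1 or 0 h replicate 2 was left out (highest adjusted p = 0.224 and 0.236). MT-CYB lost its call when 48 h replicate 1, 0 h replicate 1 or 0 h replicate 2 was left out (highest adjusted p = 0.367). MT-ND1, MT-CYB and MT-ND4L lost their calls without pairing (adjusted p = 0.332, 0.331 and 0.287). In the mitochondrially encoded transcripts list the calls numbered 1, 5, 5 and 0 lower without 48 h replicate 1, 48 h replicate 2, 0 h replicate 1 and 0 h replicate 2 in turn.

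Most markers of other cell types were low. The fibroblast list had 8 of 13 members tested and summed to 17.6 and 24.6 TPM at 48 h, against 29.6 and 32.8 TPM at 0 h; LUM, lumican, was its call, at 2.14 and 2.56 TPM at 48 h, against 1.41 and 0.2902 TPM at 0 h (log2 fold change 1.16). Endothelial markers had 2 members tested of the 9 found, and ESAM, an adhesion molecule of endothelium, measured 6.18 and 7.61 TPM at 48 h, against 1.14 and 0.767 TPM at 0 h (log2 fold change 2.25), while VWF reached at most 0.0829 TPM and CDH5 0.374 TPM in any of the 4 libraries. Leukocyte markers had 6 of 12 tested: CSF1R rose (adjusted p = 0.0352) and CD68 rose by 0.96, with 13.2 and 20.3 TPM at 48 h, against 6.37 and 13.9 TPM at 0 h, CD14 fell, with a log2 fold change of -1.62 and 0 TPM listed in 48 h replicate 2, and PTPRC reached at most 0.278 TPM. Erythroid markers had 0 of 7 tested, and nerve and muscle markers gave 0 calls among 5 tested, 1 of them at an unadjusted p below 0.05; the nerve and muscle list summed to 18.1 and 72.8 TPM at 48 h, against 42.1 and 41.4 TPM at 0 h, so that the 48 h replicates lay on either side of 0 h. Of alveolar and airway markers 5 of 12 were tested, and TP63, a basal cell factor, measured 15.3 and 19.9 TPM at 48 h, against 10.02 and 3.36 TPM at 0 h (log2 fold change 1.65). The part of these genes in the other changes was not tested. ESAM lost its call without 0 h replicate 2 (adjusted p = 0.0501). CD14 lost its call when 48 h replicate 2 or 0 h replicate 2 was left out (highest adjusted p = 0.0834). LUM and TP63 lost their calls when 48 h replicate 1, 48 h replicate 2 or 0 h replicate 2 was left out (highest adjusted p = 0.325 and 0.39). CD68 lost its call when 48 h replicate 1, 0 h replicate 1 or 0 h replicate 2 was left out (highest adjusted p = 0.153). CD68 also overlapped between the times, with 48 h replicate 1 below 0 h replicate 2. CSF1R lost its call when any 1 of the 4 libraries was left out (highest adjusted p = 0.178). LUM, CSF1R, CD68 and TP63 lost their calls without pairing (adjusted p = 0.101, 0.0642, 0.36 and 0.102).

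The neighbouring times were compared next. No gene was called by limma between 48 h and 36 h (0%), paired or not, with 10.9% of genes at an unadjusted p below 0.05 in the paired fit and 6.87% without pairing. These comparisons share the 48 h libraries with the one against 0 h. The number of calls depended on 1 library at a time: it was 3 higher and 7 lower without 48 h replicate 1, and 8 higher and 2 lower without 36 h replicate 1. IGFL1 measured 656 and 1481 TPM at 48 h, against 298 and 1363 TPM at 36 h. It did not pass the test, and its 48 h replicates differed by more than the means of the times.

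Between 48 h and 72 h, 1 gene was called higher at 48 h and 1 lower (0.00471% each); 6.3% of genes had an unadjusted p below 0.05, or 3.25% without pairing. HERC3, a ubiquitin ligase (ENSG00000138641; chromosome 4, 88592423 to 88708542), was lower: it measured 5.15 and 4.89 TPM at 48 h, against 37.2 and 28.4 TPM at 72 h (adjusted p = 0.0391, log2 fold change -2.27, SE 0.28). It measured 13.5 and 16.9 TPM at 36 h (48 h minus 36 h -1.26 on the log2 scale, adjusted p = 0.263, not called). With 6.72 and 10.1 TPM at 0 h, 48 h was its lowest time and 72 h its highest in both replicates. AC006273.5, a long intergenic non-coding RNA (ENSG00000267530; chromosome 19, 782755 to 785080), was higher: it measured 5.62 and 9.14 TPM at 48 h, against 1.42 and 1.81 TPM at 72 h (log2 fold change 1.85, adjusted p = 0.0391). Against 0 h, where it measured 16.9 and 21.7 TPM, it was lower at 48 h (adjusted p = 0.0137, log2 fold change -1.07, SE 0.23). Both calls between 48 h and 72 h were lost without any 1 of the 4 libraries compared, with adjusted p = 0.552 for either gene without 48 h replicate 2, and without pairing (adjusted p = 0.0704 for HERC3 and 0.992 for AC006273.5). AC006273.5 lost its call when any 1 of the 4 libraries was left out (highest adjusted p = 0.108). AC006273.5 lost its call without pairing (adjusted p = 0.11).

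**Figure D4:**
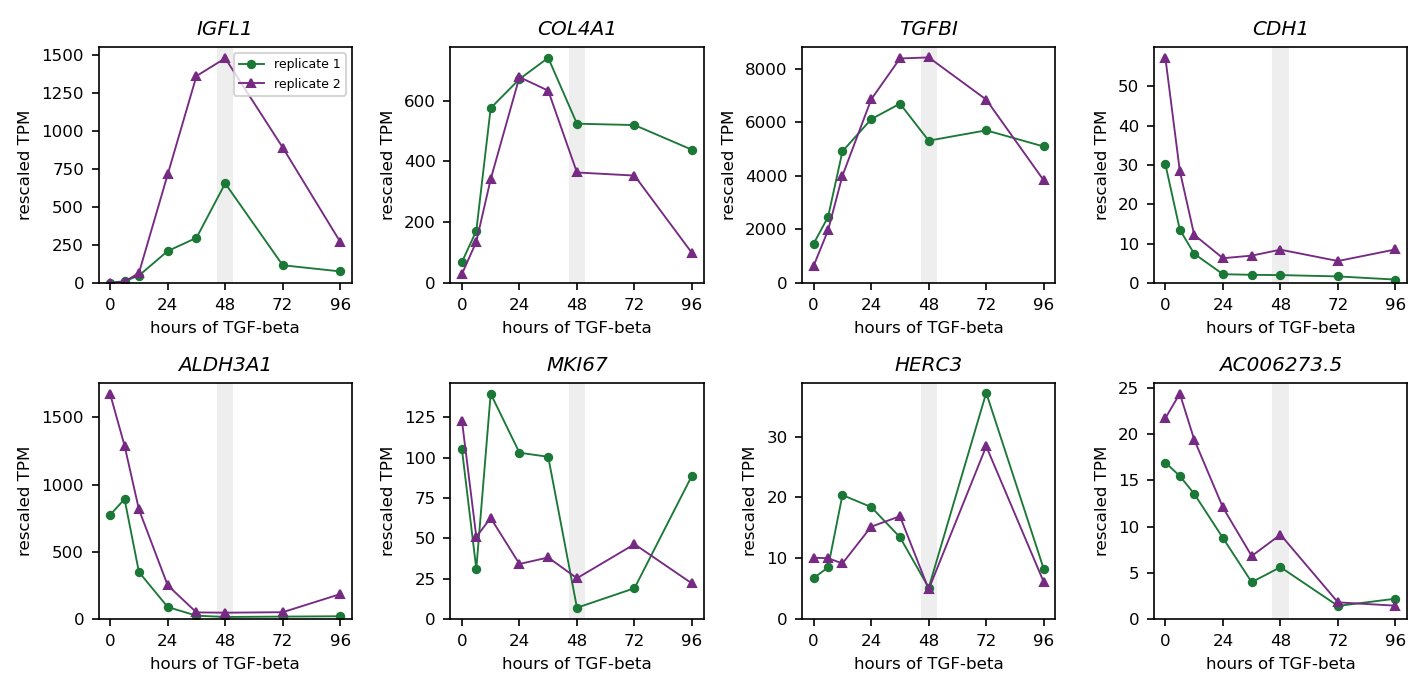
Rescaled TPM (y axis) against hours of TGF-beta (x axis) for 8 genes, with circles for replicate 1 and triangles for replicate 2; the grey band marks 48 h. CDH1 and ALDH3A1 were low at 48 h, IGFL1 was at its highest, and HERC3 was low at 48 h and peaked at 72 h, at 37.2 and 28.4 TPM.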

How the data were processed

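RNA abundance was measured by sequencing of Trizol-extracted total RNA with TruSeq libraries, per the labels' protocols. The authors deposited TPM per gene in 1 table per replicate number. Per the submitters' processing notes, Bowtie and RSEM were used, with no version given; the sources used here do not give the genome build or annotation. All value columns were mapped to a library by time and replicate number. No identical libraries were found (highest correlation between any pair 0.987).

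After removal of RN7SL1, RN7SL2, RN7SL3, RN7SK, RMRP and RPPH1, each library was rescaled to 1e+06. Genes reaching 1 TPM in 2 or more of the 16 libraries were kept, 21216 of 57773. Values of log2(TPM + 1) were centred by subtracting from each library the median, over tested genes, of its difference from the gene means. They were fitted with limma 3.58.1 in R 4.3.3, with a mean per time and the replicate number as a block over all 16 libraries (7 residual degrees of freedom, mean trend, two-sided, Benjamini-Hochberg adjustment at 0.05). The steps were tested on simulated data. TMM factors for an alternative scaling were computed from the published formula. An exact permutation test of 2 against 2 cannot go below 0.333, so none was used.

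Libraries were paired by replicate number as the comparison was defined; the labels do not say that a number is a shared batch. Deviations of same-numbered libraries correlated above 0.1 in 27 of 28 pairs of times (lowest 0.0734, median 0.344, and 0.285 between 48 h and 0 h), so the criterion that every pair exceed 0.1 was missed, and each list count and each named call that is lost without pairing is given with its unpaired value.

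The genes named were the 15 largest rises and falls whose higher group averaged 5 TPM or more with no overlap, up to 3 per direction in each of 44 lists, up to 5 called against each neighbouring time, and 24 fixed markers. Some genes that this rule chose are not reported here. The members and lists were chosen with earlier results of these data known. Alternatives were another pseudocount, other filters and scalings, a fit to 2 times, and leaving out libraries.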

Additional observations from a re-analysis of the deposited data

Results flagged for a closer look

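HERC3 differed between 48 h and 72 h by -2.27 on the log2 scale (limma, adjusted p = 0.0391), a difference between neighbouring times of the same treatment; HERC3 was lower at 48 h in both replicates. AC006273.5 differed by 1.85 (adjusted p = 0.0391) and was higher at 48 h in both replicates.

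The 6 small RNAs left out of the comparison took 64.1% of the deposited TPM in 48 h replicate 1 and 60.2% in 48 h replicate 2, against 51.8% in each 0 h library, and between 42.5% and 64.1% over all 16 libraries.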

How the results depend on the processing

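The paired comparison gave 1116 higher and 924 lower calls. The fit with no replicate block gave 500 and 329, all of them among the paired calls. The block leaves fold changes as they are, since every time holds both replicate numbers, and alters only their standard errors. No centring gave 647 and 1617, TPM as deposited 288 and 2534, and no filter beyond a value above 0 in 2 libraries 686 higher. Leaving out 1 of the 4 libraries gave 409 to 743 higher and 227 to 522 lower; leaving out 36 h replicate 2 and 48 h replicate 2 together, chosen after seeing the data, gave 612 and 412. TMM scaling, a pseudocount of 0.1, a filter on 8 libraries, a fit to the 2 times, and leaving out 36 h replicate 2 (1082 and 900) each kept both counts within 1.5 times. The median shift was -0.22, -0.46 with TPM as deposited and -0.29 with a pseudocount of 0.1. Between 48 h and 36 h the 0 calls became 1 higher with a pseudocount of 0.1, 1 higher and 5 lower in a fit to the 2 times, and 0 to 8 higher and 0 to 7 lower when 1 library was left out. Between 48 h and 72 h the 1 higher and 1 lower call became 0 and 0 with no replicate block, no centring, TPM as deposited, no filter, a fit to the 2 times, or without 36 h replicate 2, alone or with 48 h replicate 2; TMM scaling gave 0 higher; a pseudocount of 0.1 and a filter on 8 libraries each gave 2 lower; and leaving out 1 library gave 0 to 2 higher and 0 to 5 lower. Of 149 called named genes, 79 kept their call without each of the 4 libraries, 65 of them also with no replicate block. Of uncalled genes, MYC was at -0.18, between -0.43 and 0.08 when 1 library was left out (above 0 without 48 h replicate 2) and at 0.12 without 48 h and 36 h replicate 2 together; TWIST1 was at -0.21, and between -0.54 and 0.13 (above 0 without 0 h replicate 1). The cause of these changes was not tested. The depth is unknown, so low values carry no interval.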

Other observations

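Genes outside the lists, named after their values were seen, also moved at 48 h. WNT5B, a Wnt ligand, measured 60.5 and 30.4 TPM at 48 h, against 2.45 and 1.16 TPM at 0 h (adjusted p = 0.000162, log2 fold change 4.24, SE 0.45), while WNT7B, another Wnt ligand, measured 5.703 and 4.44 TPM at 48 h, against 38.2 and 45.02 TPM at 0 h (adjusted p = 0.00668, log2 fold change -2.58, SE 0.49). DKK1, a secreted Wnt inhibitor, measured 13.05 and 72.3 TPM at 48 h, against 147 and 345 TPM at 0 h (adjusted p = 0.000923, log2 fold change -2.59, SE 0.36), and AXIN2, a feedback target of Wnt signalling, was not called (log2 fold change -0.53, adjusted p = 0.405). FOXS1, a forkhead factor, measured 35.2 and 13.5 TPM at 48 h, against 1.12 and 0.249 TPM at 0 h (adjusted p = 5.12e-05, log2 fold change 4.05, SE 0.36). WNT7B lost its call when 48 h replicate 1 or 0 h replicate 2 was left out (highest adjusted p = 0.104). WNT7B and DKK1 lost their calls without pairing (adjusted p = 0.0663 and 0.162).

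Among the genes named in the same way, those that follow were lower. C5, a complement component, measured 3.23 and 9.97 TPM at 48 h, against 29.3 and 72.2 TPM at 0 h (adjusted p = 8.21e-05, log2 fold change -2.56, SE 0.24), and CP, the copper carrier ceruloplasmin, measured 0.529 and 4.95 TPM at 48 h, against 11.7 and 63.8 TPM at 0 h (adjusted p = 0.00433, log2 fold change -3.02, SE 0.54), with replicate 2 above replicate 1 at both times. ABCG2, a drug efflux pump, measured 1.89 and 7.98 TPM at 48 h, against 27.1 and 47.1 TPM at 0 h (adjusted p = 0.000161, log2 fold change -2.62, SE 0.28). KITLG, the ligand of the KIT receptor, measured 2.45 and 4.07 TPM at 48 h, against 32.1 and 23.5 TPM at 0 h (adjusted p = 0.0211, log2 fold change -2.54, SE 0.60). CP lost its call without 0 h replicate 2 (adjusted p = 0.0741). KITLG lost its call when any 1 of the 4 libraries was left out (highest adjusted p = 0.152). C5 and CP lost their calls without pairing (adjusted p = 0.0511 and 0.118).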
